A study of Mus musculus with 14 samples.

Results

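The Hox genes encode homeodomain transcription factors that give cells their position along the body axis and along the limb. In the mouse they lie in 4 clusters, Hoxa, Hoxb, Hoxc and Hoxd, and each gene carries a paralogue number that follows its place in its cluster. Low numbers belong to genes of the head and trunk side, and high numbers to genes that pattern the trunk's end and the far segments of the limb. Adult stromal and bone cells keep part of the Hox code of the site where they were formed, and some Hox genes, among them Hoxa9 and Hoxb4, also act in blood stem and progenitor cells.

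Their RNA was followed here in marrow plugs flushed from the distal tibia, a site rich in bone marrow adipose tissue (BMAT). All 39 symbols made of Hox, a cluster letter and a number were present in the per-sample count tables of 55401 genes, and the 31 of them that the deposited matrix of 23441 genes keeps were taken as members: 11 Hoxa, 9 Hoxb, 8 Hoxc and 3 Hoxd genes, 21 with the numbers 1 to 8 and 10 with the numbers 9 to 13. In mm10 the Hoxa genes lie on chromosome 6, the Hoxb genes on 11, the Hoxc genes on 15 and the Hoxd genes on 2.

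The mice were males of mixed C57BL6/SJL background, labelled as 24 weeks old, and each sample pooled the marrow of 2 mice. BMAd-Pnpla2-/- mice lacked Pnpla2, which encodes the lipase ATGL that starts the breakdown of stored fat, in bone marrow adipocytes (BMAds), and BMAd-Pnpla2+/+ mice kept it. Both diets were given to both genotypes: food ad libitum (AL), or 30% caloric restriction (CR) for 6 weeks. There were 4 samples of BMAd-Pnpla2+/+ AL, 4 of BMAd-Pnpla2+/+ CR, 3 of BMAd-Pnpla2-/- AL and 3 of BMAd-Pnpla2-/- CR. The deletion rests on a Cre expressed from the Adipoq locus, which a recombinase expressed from the Osterix locus turns into its working orientation, and the study describes labelling of a few stromal cells as well. The other cells of the marrow were not meant to lose Pnpla2. The study's discussion calls the Cre expression low, with recombination less frequent in young mice. The study also reports that the Cre labelled most BMAds of older mice, and that ATGL protein was lost from BMAds of the proximal tibia.

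The libraries held 18898324 to 21665553 read pairs counted on genes without regard to strand, and 1228 to 4205 of these fell on the 31 Hox genes. Pnpla2 itself stood at 174 to 301 CPM, the count scaled to library size, in BMAd-Pnpla2+/+ AL, 502 to 1015 in BMAd-Pnpla2+/+ CR, 131 to 170 in BMAd-Pnpla2-/- AL and 177 to 267 in BMAd-Pnpla2-/- CR. It was lower in BMAd-Pnpla2-/- than in BMAd-Pnpla2+/+ under CR (log2 fold change -1.90 ± 0.26 SE, adjusted p = 0.0386), whereas the difference when fed AL was -0.57 ± 0.25 (adjusted p = 1). Adipocyte, stromal, osteoblast and blood cell markers were all detected, and none of those lists had a member at 0 in every sample. Replicate 4 of BMAd-Pnpla2+/+ CR had the lowest Pnpla2 level of its group, 502 CPM. The 3 BMAd-Pnpla2-/- CR libraries had 50.1 to 50.5% of their strand-assigned reads on the first strand and the 11 others 4.30 to 4.62%. This difference and the group cannot be told apart. For this reason the unstranded count of every library was used throughout.

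Levels are given as CPM, the count over the library size scaled by TMM, or, where genes are compared with each other, as CPM per kilobase of merged exons (RPKM). Differences are log2 fold changes ± SE from edgeR's quasi-likelihood test in 1 model of the 14 samples, with p-values adjusted by Benjamini and Hochberg over the 17671 genes that passed the filter on low counts. A gene is said to rise or fall only where the adjusted p was under 0.05. Of the 31 Hox genes, 27 passed the filter, and Hoxb1, Hoxb2, Hoxc13 and Hoxd4 did not. Nothing in the labels says more of how samples of a group were related than that each is its own pool, and p-values measure the spread between these pools.

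The Hox genes with the highest level per length over the 14 samples were Hoxa5 (mean 3.55 RPKM), Hoxa13 (3.54), Hoxa7 (3.39), Hoxa10 (3.37), Hoxb4 (3.32) and Hoxa9 (2.64), and the same 6 led when the longest transcript was taken as the length, in another order, with Hoxa7 at rank 1 (4.81) and Hoxb4 at rank 6 (3.32). These ranks rest on unstranded counts, which kept 45.8% of the reverse-strand reads of Hoxa11 in the strand-specific libraries. Per kilobase of merged exons, the order in BMAd-Pnpla2+/+ AL marrow was led by Hoxb4, at 3.49 ± 0.296 RPKM (SD, n = 4), followed by Hoxa7 at 2.95 ± 0.180 and Hoxa5 at 2.83 ± 0.644, the latter pair within their spread of each other. The SD ranges of Hoxb4 and Hoxa5 also overlapped. In BMAd-Pnpla2+/+ CR marrow Hoxa13, the last gene of its cluster and a gene of the far limb, led by its mean, at 6.60 ± 3.08 RPKM. Its spread reached the means of Hoxa10 at 4.86 ± 1.35, Hoxa7 at 4.66 ± 1.43 and Hoxa5 at 4.65 ± 1.25. Those genes lay within the spread of one another. BMAd-Pnpla2-/- marrow was led by Hoxb4 when fed AL (4.38 ± 0.564, n = 3) and by Hoxa10 and Hoxa13 under CR (3.87 ± 0.835 and 3.72 ± 0.987).

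**Figure D1:**
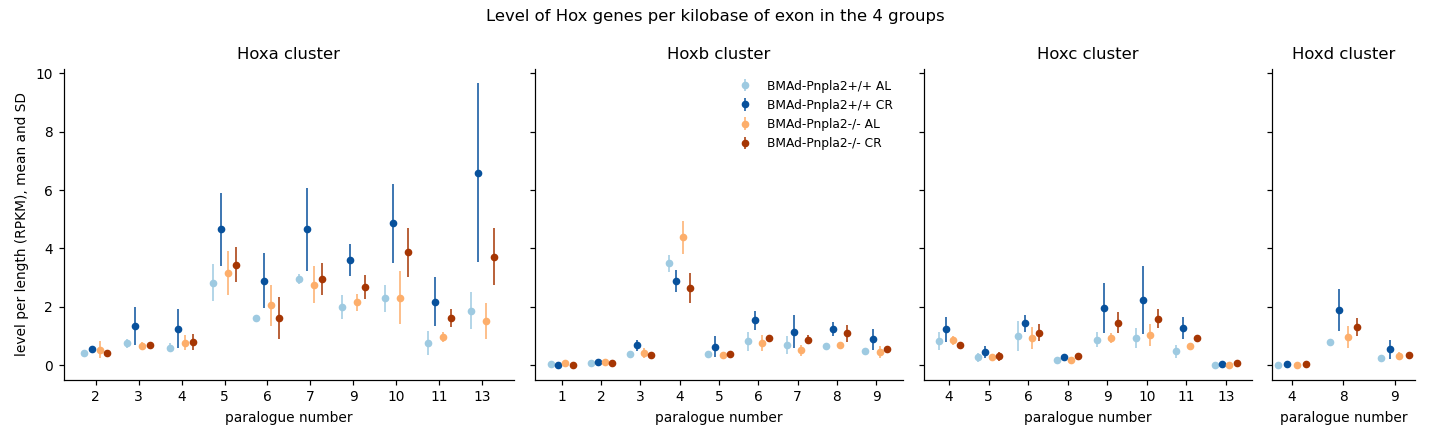
Level of 30 of the 31 Hox genes in RPKM (vertical axis) by paralogue number (horizontal axis), 1 panel per cluster; points are group means and bars 1 SD over 4 samples (BMAd-Pnpla2+/+) or 3 samples (BMAd-Pnpla2-/-). The Hoxa genes from 5 to 13 and Hoxb4 stand above most others, and Hoxa13 in BMAd-Pnpla2+/+ CR reaches 6.60 RPKM against 1.87 in BMAd-Pnpla2+/+ AL.

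The clusters were read to unequal extents. The 11 Hoxa genes carried 60.1 ± 2.41% of all Hox counts in BMAd-Pnpla2+/+ AL samples, the 9 Hoxb genes 22.9 ± 2.54%, the 8 Hoxc genes 13.5 ± 2.58% and the 3 Hoxd genes 3.48 ± 0.466%. Every Hoxa gene passed the filter, Hoxa13 among them with 48 to 499 counts. At the Hoxd cluster only Hoxd8 (36 to 175 counts) and Hoxd9 (6 to 46) did, while Hoxd4 had at most 3 counts in any library. Hoxd1, Hoxd3, Hoxd12 and Hoxd13 had 0 counts in all 14 libraries, Hoxd10 had at most 1 and Hoxd11 at most 2. A count of 0 allows up to 3 counts, which is 0.133 to 0.163 CPM depending on the library, and that limit covers counting error only. It leaves out reads over exons shared with other genes, which unstranded counting assigns to no gene: 62.8% of the exon bases of Hoxd3 and 52.3% of those of Hoxd4 are shared, with Gm28230 and Hoxd3os1 among the partners. Paralogue 13 was thus read at Hoxa13 and scarcely elsewhere, with at most 4 counts of Hoxc13 and of Hoxb13 in any library.

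In BMAd-Pnpla2+/+ mice, CR raised Hox RNA broadly, and most at the posterior genes. Of the 27 tested, 14 rose and none fell, or 51.9%, against 15.1% of all tested genes that rose and 10.9% that fell in the same comparison. With a log2 fold change over 1 as well, 7 Hox genes rose, against 7.33% of all genes. The median log2 fold change of the 27 was 0.85, from -0.28 for Hoxb4 to 1.82 for Hoxa13, whereas the median of all tested genes was 0.00. All CR samples lay above all AL samples for 8 Hox genes, and 12.4% of all tested genes did the same. The summed Hox level was 92.9, 64.8, 74.4 and 79.1 CPM in the AL samples and 126, 192, 163 and 93.7 CPM in the CR samples. CR replicate 4 lay barely above the highest AL sample.

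The 14 that rose were Hoxa3, Hoxa5, Hoxa7, Hoxa9, Hoxa10, Hoxa11, Hoxa13, Hoxb3, Hoxb6, Hoxb8, Hoxc9, Hoxc10, Hoxc11 and Hoxd8. By paralogue number, 7 of the 9 tested genes from 9 to 13 rose, with a median log2 fold change of 1.18, and 7 of the 18 tested genes from 1 to 8, with a median of 0.74. By cluster, 7 of 11 Hoxa, 3 of 7 Hoxb, 3 of 7 Hoxc and 1 of 2 Hoxd genes rose. The medians were 0.85, 0.84, 0.74 and 1.22. Within the Hoxc cluster the 3 tested genes from Hoxc9 to Hoxc11 rose, at 1.18 to 1.42. None of the 4 from Hoxc4 to Hoxc8 was called, though all lay above 0, at 0.51 to 0.74. Whether these sets of Hoxc genes differ was not tested.

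**Figure D2:**
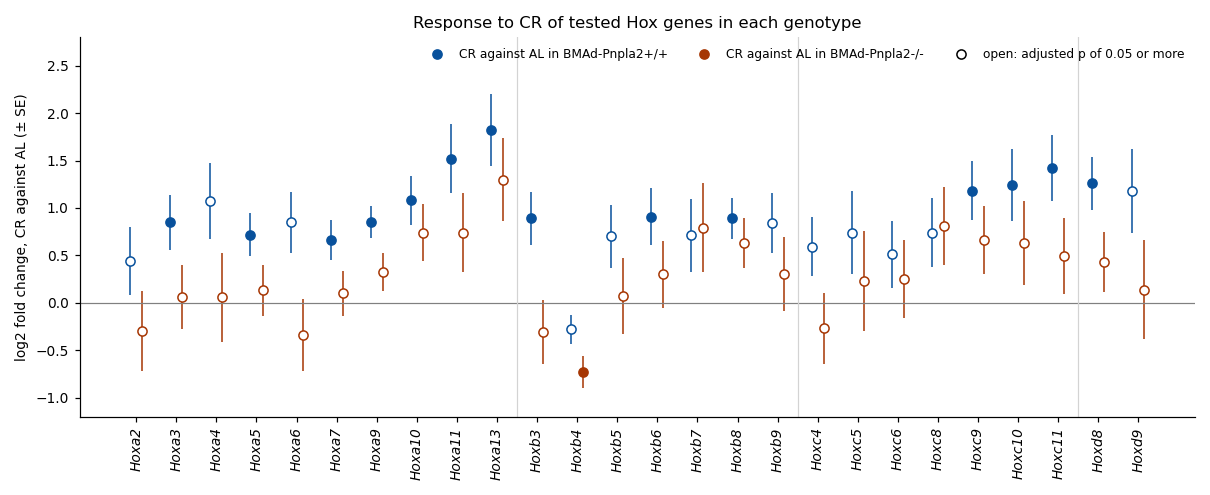
Log2 fold change of CR against AL (vertical axis, ± SE) for 26 of the 27 tested Hox genes in order of cluster and number (horizontal axis), in BMAd-Pnpla2+/+ (blue, 4 against 4 samples) and BMAd-Pnpla2-/- (brown, 3 against 3). Filled points have an adjusted p under 0.05: 14 genes above 0 in BMAd-Pnpla2+/+ and Hoxb4 alone, below 0, in BMAd-Pnpla2-/-.

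The largest rise was that of Hoxa13, which patterns the wrist, ankle and digits. It stood at 7.0, 3.64, 3.81 and 4.08 CPM in BMAd-Pnpla2+/+ AL and at 14.1, 22.7, 21.9 and 6.49 CPM in BMAd-Pnpla2+/+ CR. The first 3 CR samples were above every AL sample by a wide margin, and CR replicate 4 lay below AL replicate 1. The log2 fold change was 1.82 ± 0.38 (adjusted p = 0.00635), or 2.08 ± 0.30 without CR replicate 4. Hoxa13 in BMAd-Pnpla2-/- mice stood at 3.21, 5.42 and 2.54 CPM with AL and at 6.70, 9.31 and 11.6 CPM with CR. These groups did not overlap, though the share of all genes without overlap in BMAd-Pnpla2-/- mice was not counted. The log2 fold change of Hoxa13 there, 1.30 ± 0.44, missed the threshold (adjusted p = 0.0697). Its 250 bases before the RefSeq start (GRCm38.p6, chr6:52260881-52261130, minus strand) are shown because the gene moved most and because this window is the richest in CpG of the 17 Hox windows available, for 16 members. It holds 35 CpG, where the median of all 32851 promoter windows is 6. In capitals are the GC boxes (GGGCGG on either strand) and the CCAAT box (CCAAT on either strand), which do not overlap.
Hoxa13: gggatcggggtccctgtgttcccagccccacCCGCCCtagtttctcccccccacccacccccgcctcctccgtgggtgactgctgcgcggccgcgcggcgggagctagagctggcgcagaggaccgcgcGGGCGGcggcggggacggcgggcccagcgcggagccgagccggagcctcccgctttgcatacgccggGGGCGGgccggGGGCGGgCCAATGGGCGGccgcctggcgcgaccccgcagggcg
The first GC box in the line is read on the other strand (CCGCCC). A GC box is found in 32.7% of all windows of this length and in 7 of the 17 Hox windows, and a CCAAT box in 33.8% and in 9 of 17. A match is only a run of letters and was not tested for binding.

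Hoxa11, Hoxa10 and Hoxa9, the other posterior genes of the cluster, rose as well. Hoxa11, needed for the shank and forearm, stood at 3.14, 1.53, 1.08 and 1.14 CPM with AL and at 4.69, 6.70, 6.09 and 2.37 CPM with CR in BMAd-Pnpla2+/+ mice (log2 fold change 1.52 ± 0.36, adjusted p = 0.011). Again only CR replicate 4 lay inside the AL range. Hoxa10, a gene of the thigh segment that also acts in bone formation, stood at 8.55, 5.91, 6.49 and 9.05 CPM with AL and at 15.1, 19.0, 19.5 and 9.97 CPM with CR (1.08 ± 0.26, adjusted p = 0.0115). Hoxa9, known for its part in blood progenitors and leukaemia, had the most counts of all Hox genes, 182 to 506 per library. It stood at 13.2, 9.81, 13 and 8.63 CPM with AL and at 20.1, 23.1, 21.5 and 15.7 CPM with CR (0.85 ± 0.17, adjusted p = 0.00517). Neither Hoxa10 nor Hoxa9 overlapped between the diets.

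None of these 3 passed the threshold with CR in BMAd-Pnpla2-/- mice. Hoxa11 stood at 2.07, 2.68 and 1.90 CPM with AL and at 2.90, 4.21 and 4.02 CPM with CR, without overlap (0.74 ± 0.42, adjusted p = 0.257). For all genes, such a lack of overlap in these mice was not counted. Hoxa10 stood at 5.11, 10.8 and 6.72 CPM with AL and at 9.49, 14.4 and 14.1 CPM with CR, where AL replicate 2 lay above CR replicate 1 (0.74 ± 0.30, adjusted p = 0.121). Hoxa9 stood at 10.9, 13.8 and 11.3 CPM with AL and at 12.3, 15.5 and 17.0 CPM with CR (0.32 ± 0.20, adjusted p = 0.306). The promoter window of Hoxa11 (GRCm38.p6, chr6:52245811-52246060, minus strand) is printed beside that of Hoxa13 as the next gene of the cluster and the next in size of change. It has 13 CpG and none of the 4 motifs looked for, which were the GC and CCAAT boxes, the TATA box (TATAAA, in 12.4% of all windows) and the joint site of Pbx and Hox proteins (TGATNNAT, in 7.68%), all on both strands.
Hoxa11: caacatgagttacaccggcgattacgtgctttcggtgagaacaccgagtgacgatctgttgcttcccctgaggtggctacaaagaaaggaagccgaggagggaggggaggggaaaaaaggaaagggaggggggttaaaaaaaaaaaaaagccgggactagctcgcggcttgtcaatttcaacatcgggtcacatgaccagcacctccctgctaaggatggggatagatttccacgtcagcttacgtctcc

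**Figure D3:**
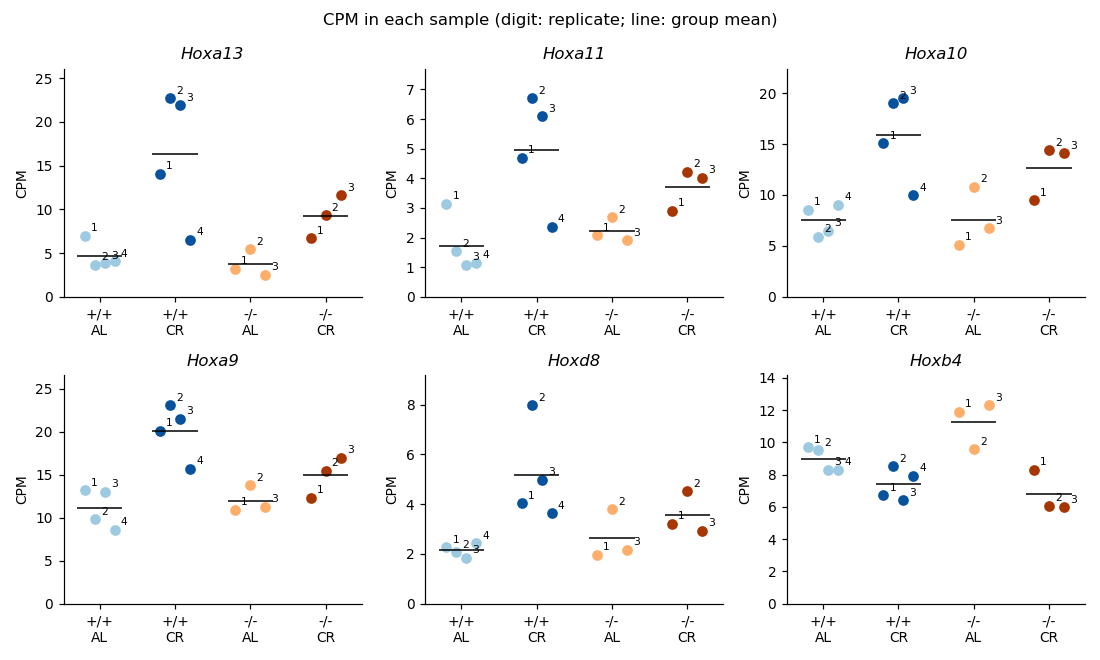
CPM (vertical axis, from 0) of 6 Hox genes in each of the 14 samples, by genotype and diet (horizontal axis); each point is a sample with its replicate number and the line is the group mean. For Hoxa13, Hoxa11 and Hoxa10, replicate 4 of BMAd-Pnpla2+/+ CR is the lowest of its group, and Hoxb4 alone is lower with CR than AL in both genotypes.

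Among the anterior Hoxa genes, those that rose in BMAd-Pnpla2+/+ mice were Hoxa7, Hoxa5 and Hoxa3. Hoxa7, a gene of the trunk, stood at 8.88, 7.75, 8.44 and 8.82 CPM with AL and at 12.3, 19.0, 13.2 and 9.07 CPM with CR (log2 fold change 0.66 ± 0.21, adjusted p = 0.0323). Hoxa5, which acts in lung and skeleton and is read in fat depots, stood at 5.94, 3.96, 6.64 and 4.69 CPM with AL and at 7.58, 11, 10.3 and 6.01 CPM with CR (0.72 ± 0.23, adjusted p = 0.0358). Hoxa3, a gene of the throat organs, stood at 5.02, 3.38, 4.12 and 5.45 CPM with AL and at 5.64, 13.1, 9.25 and 4.48 CPM with CR (0.85 ± 0.29, adjusted p = 0.0417). The call of Hoxa3 was lost in 12 of 22 alternatives and those of Hoxa7 and Hoxa5 in 6 each. Of the 3, only Hoxa7 did not overlap between the diets, and its CR replicate 4 stood close to the AL samples.

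The same 3 genes had fitted differences smaller than their standard errors in BMAd-Pnpla2-/- mice. Hoxa7 stood at 7.01, 10 and 6.77 CPM with AL and at 6.80, 8.78 and 9.85 CPM with CR, a log2 fold change of 0.10 ± 0.24. Hoxa5 stood at 4.40, 7.16 and 6.24 CPM with AL and at 5.22, 6.94 and 7.26 CPM with CR, a change of 0.13 ± 0.27. For Hoxa3 the values were 3.15, 4.26 and 4.5 CPM with AL and 3.80, 4.21 and 4.41 CPM with CR, a change of 0.06 ± 0.34. Hoxa2, Hoxa4 and Hoxa6, also anterior, had 8 to 75 counts per library. In BMAd-Pnpla2+/+ mice their log2 fold changes of 0.44 to 1.07 missed the threshold.

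At the Hoxd cluster, Hoxd8 rose in BMAd-Pnpla2+/+ mice and was the anterior gene with the largest log2 fold change. It stood at 2.27, 2.06, 1.85 and 2.42 CPM with AL and at 4.03, 7.98, 4.98 and 3.64 CPM with CR, without overlap (1.26 ± 0.28, adjusted p = 0.00828). Without Pnpla2 in BMAds it stood at 1.96, 3.79 and 2.17 CPM with AL and at 3.22, 4.52 and 2.94 CPM with CR (0.43 ± 0.32, adjusted p = 0.41). There the AL sample of replicate 2 lay above 2 of the 3 CR samples. Its neighbour Hoxd9 changed by 1.18 ± 0.44 in BMAd-Pnpla2+/+ mice on 6 to 46 counts per library (adjusted p = 0.0637). The window before the Hoxd8 start (GRCm38.p6, chr2:74704365-74704614, plus strand), shown as the one Hoxd gene that rose, has 6 CpG and 1 CCAAT box.
Hoxd8: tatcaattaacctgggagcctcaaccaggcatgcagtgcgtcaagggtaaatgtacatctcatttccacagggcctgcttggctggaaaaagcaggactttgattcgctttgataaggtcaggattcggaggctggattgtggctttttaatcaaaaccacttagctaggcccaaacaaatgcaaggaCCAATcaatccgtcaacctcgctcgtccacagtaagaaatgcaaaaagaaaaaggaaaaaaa

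In the Hoxb cluster Hoxb8, Hoxb6 and Hoxb3 rose in BMAd-Pnpla2+/+ mice. Hoxb8 holds back the maturation of myeloid progenitors when it is forced on. It stood at 2.03, 1.48, 1.65 and 1.90 CPM with AL and at 3.27, 3.97, 3.47 and 2.37 CPM with CR (0.89 ± 0.22, adjusted p = 0.0136). Hoxb6 stood at 2.27, 1.11, 1.03 and 1.99 CPM with AL and at 2.37, 3.24, 3.82 and 2.64 CPM with CR (0.91 ± 0.30, adjusted p = 0.0379), and Hoxb3 at 1.21, 2.11, 1.29 and 1.66 CPM with AL and 2.56, 4.06, 2.40 and 2.59 CPM with CR (0.89 ± 0.28, adjusted p = 0.0351). None of the 3 overlapped between the diets, though the call of Hoxb6 was lost in 10 of 22 alternatives and that of Hoxb3 in 9. For BMAd-Pnpla2-/- mice, Hoxb8 stood at 1.69, 2.11 and 1.80 CPM with AL and at 2.00, 3.16 and 3.48 CPM with CR (0.63 ± 0.26, adjusted p = 0.126). Hoxb6 stood at 0.870, 1.84 and 1.75 CPM and at 1.69, 2.00 and 1.81 CPM (0.30 ± 0.35, adjusted p = 0.616), and Hoxb3 at 1.09, 2.53 and 1.80 CPM and at 1.42, 1.74 and 1.23 CPM (-0.31 ± 0.34, adjusted p = 0.59). All 3 overlapped between the diets there.

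Hoxb4, which widens the pool of blood stem cells when it is forced on, went the other way. It stood at 9.70, 9.50, 8.29 and 8.29 CPM in BMAd-Pnpla2+/+ AL and at 6.73, 8.52, 6.40 and 7.91 CPM in BMAd-Pnpla2+/+ CR, a log2 fold change of -0.28 ± 0.15 that missed the threshold (adjusted p = 0.183). Without Pnpla2 in BMAds it stood at 11.9, 9.58 and 12.3 CPM with AL and at 8.28, 6.05 and 5.98 CPM with CR. It did not overlap between the diets there, which was not counted over all genes. It fell there (-0.73 ± 0.17, adjusted p = 0.0202), the one Hox gene called in that comparison. The diets differ there in the strand pattern of the libraries too, which cannot be told apart from CR. The call was lost without replicate 1 or 3 of BMAd-Pnpla2-/- AL and without replicate 2 or 3 of BMAd-Pnpla2-/- CR, with adjusted p-values up to 0.0939. The difference between the responses in the 2 genotypes was -0.46 ± 0.23 (adjusted p = 0.51). Its window (GRCm38.p6, chr11:96318017-96318266, plus strand) is shown as that of the gene that fell. It has 14 CpG and none of the 4 motifs.
Hoxb4: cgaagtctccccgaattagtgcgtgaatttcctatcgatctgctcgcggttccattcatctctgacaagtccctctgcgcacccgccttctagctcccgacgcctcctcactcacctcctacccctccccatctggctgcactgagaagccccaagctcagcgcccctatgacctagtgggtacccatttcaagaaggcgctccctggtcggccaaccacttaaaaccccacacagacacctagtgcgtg

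In the Hoxc cluster the genes called in BMAd-Pnpla2+/+ mice were all posterior ones. Hoxc9 stood at 2.90, 1.64, 2.32 and 1.56 CPM with AL and at 3.65, 7.52, 5.16 and 2.69 CPM with CR (1.18 ± 0.31, adjusted p = 0.0176). Hoxc10, a gene of the hindlimb and lumbar region, stood at 2.32, 1.58, 0.978 and 2.32 CPM with AL and at 3.17, 7.20, 4.67 and 2.06 CPM with CR (1.24 ± 0.38, adjusted p = 0.0299). Hoxc11, likewise a hindlimb gene, stood at 1.16, 0.317, 0.927 and 1.42 CPM with AL and at 2.46, 3.28, 3.02 and 1.53 CPM with CR (1.42 ± 0.35, adjusted p = 0.0127). Only Hoxc11 kept the diets apart, and CR replicate 4 was the lowest of its group for all 3. For BMAd-Pnpla2-/- mice, Hoxc9 stood at 1.85, 2.68 and 2.22 CPM with AL and at 2.53, 4.15 and 3.97 CPM with CR (0.66 ± 0.36, adjusted p = 0.252). Hoxc10 stood at 1.20, 2.63 and 2.06 CPM and at 2.43, 3.63 and 3.09 CPM (0.63 ± 0.44, adjusted p = 0.373), and Hoxc11 at 1.14, 1.58 and 1.27 CPM and at 1.69, 2.05 and 1.86 CPM (0.49 ± 0.40, adjusted p = 0.455). Only Hoxc11 kept the diets apart there too, and the share of all genes that did so was not counted. Hoxc5 and Hoxc10 are annotated with 166 exon bases in common on 1 strand.

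Over all Hox genes of BMAd-Pnpla2-/- mice, no tested Hox gene rose with CR and Hoxb4 fell, or 0 and 3.7% of the 27, where 6.04% of all tested genes rose and 5.57% fell. At an unadjusted p under 0.05 there were 4 Hox genes, and DESeq2 called 2, Hoxb4 and Hoxa13. The shares of all genes at that p and with DESeq2 were not counted. The median log2 fold change of the 27 was 0.30, and that of all genes 0.05. The tested genes from 9 to 13 had a median of 0.63 and lay above 0 in 9 of 9, from 0.14 to 1.30. The genes from 1 to 8 had a median of 0.11, with 13 above and 5 below 0. Summed Hox levels were 69.9, 98.9 and 77.9 CPM with AL and 83.0, 107 and 111 CPM with CR, which overlapped.

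The balance between posterior and anterior genes differed between the diets in both genotypes. In BMAd-Pnpla2-/- mice the CR libraries were also those with reads on both strands. Diet and this difference between libraries cannot be told apart there. The genes from 9 to 13 gave 43.5, 39.7, 40.5 and 38.3% of all Hox counts in BMAd-Pnpla2+/+ AL and 52.3, 49.8, 52.4 and 45.9% in BMAd-Pnpla2+/+ CR. They gave 38.8, 42.7 and 37.8% in BMAd-Pnpla2-/- AL and 48.3, 52.1 and 52.5% in BMAd-Pnpla2-/- CR. Every CR sample, replicate 4 of BMAd-Pnpla2+/+ CR included, lay above every AL sample of either genotype. The means were 40.5 ± 2.19% and 50.1 ± 3.05% (SD) in BMAd-Pnpla2+/+ mice and 39.8 ± 2.55% and 51.0 ± 2.30% in BMAd-Pnpla2-/- mice. The exact 95% intervals of single samples, which cover counting error only, spanned 43.6 to 48.2% at the lowest CR sample, BMAd-Pnpla2+/+ CR replicate 4. That interval overlapped those of the 2 highest AL samples, 41.3 to 45.8% at BMAd-Pnpla2+/+ AL replicate 1 and 40.4 to 44.9% at BMAd-Pnpla2-/- AL replicate 2. The share is a description over members and was given no test.

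The share does not depend on how libraries are scaled, and was looked at with other members and units. Counted per length, it went from 34.2 ± 2.17% to 44.6 ± 3.57% in BMAd-Pnpla2+/+ and from 33.1 ± 2.40% to 45.1 ± 1.94% in BMAd-Pnpla2-/- mice. Without Hoxb4 it went from 45.9 ± 2.40% to 53.0 ± 2.35% and from 46.3 ± 1.24% to 54.8 ± 0.985%, and without Hoxa13 from 36.8 ± 1.68% to 44.0 ± 1.98% and from 37.0 ± 2.03% to 46.1 ± 2.00%. Within each genotype no sample of the diets overlapped in any of these.

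The sums under the share were as follows. In BMAd-Pnpla2+/+ mice the summed level of the genes from 9 to 13 was 25.7 to 40.5 CPM with AL and 43.0 to 95.3 CPM with CR, and that of the genes from 1 to 8 was 39.0 to 52.5 and 50.7 to 96.3 CPM. The posterior sum in BMAd-Pnpla2-/- mice was 27.1 to 42.2 and 40.1 to 58.0 CPM, and the anterior sum 42.7 to 56.7 with AL and 42.9 to 52.5 CPM with CR. Of the clusters, Hoxb lost share, from 22.9 ± 2.54% to 16.3 ± 2.86% of Hox counts in BMAd-Pnpla2+/+ and from 24.5 ± 3.29% to 17.2 ± 2.73% in BMAd-Pnpla2-/- mice, and Hoxa gained it, from 60.1 ± 2.41% to 65.2 ± 2.96% and from 57.7 ± 2.06% to 63.4 ± 2.63%. The Hoxb shares did not overlap between the diets in either genotype, and the Hoxa shares overlapped in BMAd-Pnpla2+/+ mice. Mean Hoxb4 was 8.95 of the 17.6 CPM of all Hoxb genes in BMAd-Pnpla2+/+ AL, and 7.39 of 22.8 CPM in BMAd-Pnpla2+/+ CR. In BMAd-Pnpla2-/- mice it was 11.2 of 19.8 CPM with AL and 6.77 of 17.0 CPM with CR. The lower Hoxb share thus went with a higher mean Hoxb sum in BMAd-Pnpla2+/+ mice. Whether the 2 genotypes differ in these sums was not tested.

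**Figure D4:**
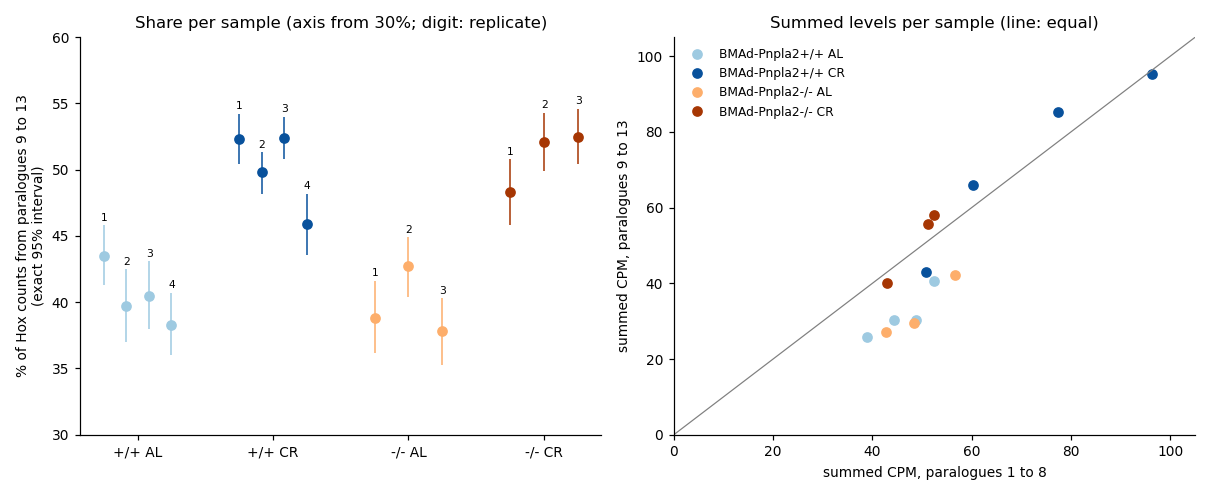
Left, percent of all Hox counts from paralogues 9 to 13 in each sample (vertical axis, from 30%) with its exact 95% interval, by genotype and diet (horizontal axis), digits giving the replicate. Right, the summed CPM of paralogues 9 to 13 (vertical axis) against that of paralogues 1 to 8 (horizontal axis), 1 point per sample with the line of equal sums; every CR sample has a larger posterior share than every AL sample, 45.9% at the lowest against 43.5% at the highest.

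The genotypes were then compared on each diet. Under CR, genotype and the strand pattern of the libraries cannot be told apart, which also bears on the difference of the responses. Fed AL, none of the 27 Hox genes and none of all 17671 genes was called by edgeR (0%), and no Hox gene had an unadjusted p under 0.05 or a call from DESeq2. The log2 fold changes ran from -0.48 for Hoxb7 to 0.47 for Hoxc11, with a median of 0.10. Under CR none of the 27 was called either, where edgeR called 0.0113% of all tested genes, which is 2 genes. Of the 27, 26 were lower in BMAd-Pnpla2-/- than in BMAd-Pnpla2+/+ mice, with a median log2 fold change of -0.49, and 8 had an unadjusted p under 0.05. The median of all genes was -0.01. The largest differences were -0.99 ± 0.31 at Hoxb3 and -0.97 ± 0.32 at Hoxa3, with adjusted p-values of 0.102 and 0.106. DESeq2 called 3 genes, Hoxa3, Hoxa7 and Hoxb3, and edgeR called 3, Hoxa3, Hoxa7 and Hoxa13, without replicate 4 of BMAd-Pnpla2+/+ CR. The shares of all genes at an unadjusted p under 0.05 and in these 2 fits were not counted. These Hox counts thus have no background to be read against.

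The difference between the 2 responses to CR was called for no Hox gene and for none of all tested genes (0%) by edgeR, and DESeq2 called no Hox gene. It was below 0 for 25 of the 27, with a median of -0.59, and 2 genes had an unadjusted p under 0.05. These were Hoxb3, at -1.19 ± 0.44 (adjusted p = 0.395), and Hoxa6, at -1.19 ± 0.49 (adjusted p = 0.43). The share of all genes with such an unadjusted p was not counted. Paralogues 9 to 13 had a median of -0.54 and paralogues 1 to 8 of -0.60. That 14 Hox genes rose in 1 genotype and none in the other is therefore not shown to be a difference between the genotypes. The comparison under CR, the response in BMAd-Pnpla2+/+ mice and the difference of the responses share the same 4 CR samples.

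Single libraries moved the count of 14. It was 20 without BMAd-Pnpla2+/+ CR replicate 4, or 74.1% of the Hox genes, beside 18.4% of all genes that rose in that fit, and the 14 were all among the 20. It was 7 without CR replicate 2, 8 without CR replicate 3, 9 without AL replicate 2 or 3, and 8 when only the 2 groups entered the fit. The shares of all genes that rose in these smaller fits were not counted. Whether the drops are particular to Hox genes was not tested. With the replicate number as a block, 11 of the 14 were called, and the share of all genes was not counted there either. The calls of Hoxa9, Hoxa10, Hoxa11, Hoxa13, Hoxb8, Hoxc11 and Hoxd8 held in all 22 alternatives that kept the threshold on the adjusted p alone, which included each sample left out in turn, and 5 of these 7 are posterior genes. With a log2 fold change over 1 required as well, Hoxa9 (0.85) and Hoxb8 (0.89) were no longer called. Of the other calls, that of Hoxa3 was lost in 12 of the 22 (adjusted p up to 0.153), among them each AL sample left out, CR replicate 2 or 3, and 3 of the BMAd-Pnpla2-/- samples. Hoxb6 lost its call in 10 (up to 0.116), among them AL replicate 2 or 3, CR replicate 2 or 3 and BMAd-Pnpla2-/- CR replicate 2 left out. For Hoxb3 the number was 9 (up to 0.112), among them AL replicate 1, 3 or 4 and CR replicate 2 or 3 left out. Hoxa5, Hoxa7 and Hoxc10 each lost it in 6 (up to 0.106), and all 3 did so without CR replicate 2 or 3 or AL replicate 2. Hoxa5 and Hoxa7 also did so without AL replicate 4, and Hoxa7 and Hoxc10 without AL replicate 3. Hoxc9 lost it in 1, without CR replicate 2 (0.0593).

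Strand changes what is counted at genes with antisense neighbours. In the 11 strand-specific libraries, unstranded counting kept 34.1% of the reverse-strand reads of Hoxb3, 23.1% of Hoxb2 and 45.8% of Hoxa11, with reads over exons shared with the antisense RNAs Hoxb3os and Hoxa11os assigned to no gene. The overlap covers 52.9% of the exon bases of Hoxb3, 27.3% of Hoxb2 and 35.0% of Hoxa11. At Hoxc9, conversely, 29.8% of the reads lay on the first strand, opposite to the gene (exact interval 26.4 to 33.3%), and at Hoxd8 13.6%, though neither has an annotated overlap. For most members the share was under 3%, and it was 0.701% at Hoxa13 and 0.913% at Hoxb4. On the reverse strand alone, fitted over those 11 libraries, 11 of 28 tested Hox genes rose with CR in BMAd-Pnpla2+/+ mice (39.3%), where 13.3% of all genes rose. Of these, 10 were among the 14. Hoxb3 gave 0.50 ± 0.22 there (adjusted p = 0.111), while Hoxa11 gave 1.5 ± 0.33 (adjusted p = 0.0118) and Hoxc9 1.13 ± 0.35 (adjusted p = 0.039).

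**Figure D5:**
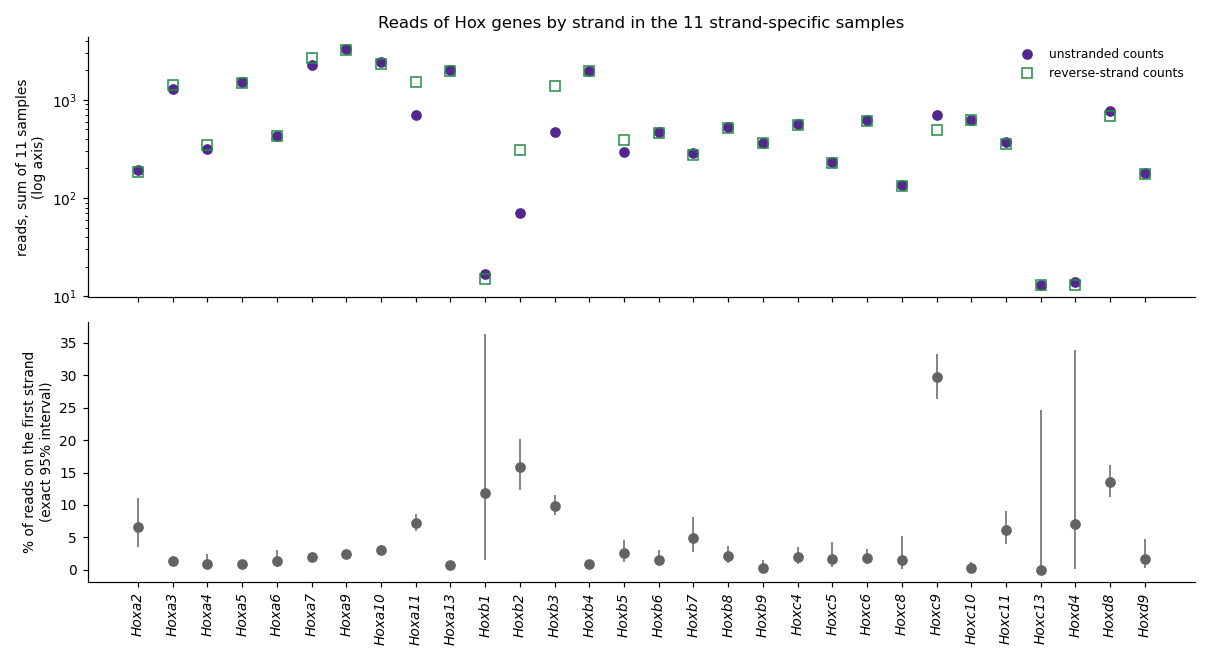
Reads of 30 of the 31 Hox genes (horizontal axis) summed over the 11 strand-specific samples: above, unstranded and reverse-strand counts on a log axis; below, the percent of strand-assigned reads on the first strand with exact 95% intervals. Unstranded counts are far below reverse-strand counts at Hoxb2, Hoxb3 and Hoxa11, and 29.8% of Hoxc9 reads lie on the first strand.

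The marrow is a mixture, and the levels of cell markers differed between the diets too, some higher and some lower with CR. In bulk RNA, fewer cells of a type and less RNA per cell cannot be told apart. In BMAd-Pnpla2+/+ mice CR raised 7 of 7 adipocyte, 5 of 6 endothelial, 4 of 8 osteoblast and 3 of 7 stromal markers, and lowered 5 of 6 pro-B and pre-B and 4 of 6 neutrophil markers. Of all tested genes, 15.1% rose and 10.9% fell there. The summed stromal markers ranged from 4306 to 5341 CPM with AL and from 5049 to 9195 with CR, osteoblast markers from 911 to 1949 and from 1320.4 to 5708, adipocyte markers from 393 to 833 and from 1142 to 2663, and neutrophil markers from 12626 to 16035 and from 5891 to 10067. BMAd-Pnpla2+/+ CR replicate 4 was the lowest of its group in stromal, osteoblast, endothelial, adipocyte and chondrocyte markers. Erythroid markers ran the other way in that group, at 26798, 8163, 8861 and 42055 CPM in CR replicates 1 to 4, against 13568 to 22888 CPM with AL. Chondrocyte markers ranged from 46.7 to 114 CPM with AL and from 82.7 to 377 with CR in BMAd-Pnpla2+/+ mice, and from 24.5 to 62.4 and from 88.1 to 134 in BMAd-Pnpla2-/- mice. Skeletal muscle markers reached 101 CPM in BMAd-Pnpla2-/- CR replicate 3 and at most 34.1 in any other sample. In BMAd-Pnpla2-/- mice CR raised 6 of 7 adipocyte and 1 of 7 stromal markers, no osteoblast and no endothelial ones, where 6.04% of all tested genes rose. The stromal sum there ranged from 4246 to 6980.1 CPM with AL and from 4943 to 7146 with CR. Blood stem and progenitor markers were higher in 3 of 7 and lower in 1 in BMAd-Pnpla2+/+ mice. Their part in the Hox result was not tested.

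Of the genes that work with or on the Hox genes, those of limb position rose in the largest share. Of 10 such transcription factors, 7 were tested and 5 rose with CR in BMAd-Pnpla2+/+ mice, where 15.1% of all tested genes rose. The median log2 fold change over the tested factors was 1.01. They included Prrx1, a factor of limb mesenchyme (1.01 ± 0.24, adjusted p = 0.012), Pitx1, which gives the hindlimb its identity (1.44 ± 0.33, adjusted p = 0.00976), Shox2 (0.78 ± 0.24) and Tbx15 (1.14 ± 0.30). None passed in BMAd-Pnpla2-/- mice, where the median was 0.67 and 6.04% of all tested genes rose.

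Retinoic acid turns on Hox genes from the anterior end of each cluster. Of 12 retinoic acid and Cdx genes, 8 were tested, and 4 rose in BMAd-Pnpla2+/+ mice with CR, where 15.1% of all tested genes rose. They were the receptor gene Rxra (0.79 ± 0.21), the synthesis genes Aldh1a2 (0.87 ± 0.23) and Aldh1a3 (1.47 ± 0.48), and Cyp26b1, whose product degrades retinoic acid (1.68 ± 0.38). Aldh1a2 also rose in BMAd-Pnpla2-/- mice (1.06 ± 0.27), and the receptor genes Rara (-0.53 ± 0.14) and Rarg (-0.35 ± 0.10) fell there. Of all tested genes, 6.04% rose and 5.57% fell in those mice. Cdx2 and Cdx4, which switch on the middle Hox genes in the embryo, had 0 counts in all libraries.

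The TALE proteins bind DNA together with Hox proteins. Of 9, all tested, 2 rose and 3 fell in BMAd-Pnpla2+/+ mice with CR, where 15.1% of all tested genes rose and 10.9% fell. Among them Pknox1 (-0.36 ± 0.10) and Meis1 (-0.63 ± 0.19) fell and Meis3 rose (0.65 ± 0.22). Meis2 rose in both genotypes, by 0.80 ± 0.20 in BMAd-Pnpla2+/+ and by 1.0 ± 0.23 in BMAd-Pnpla2-/- mice, and was the one TALE gene called in the latter.

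Trithorax proteins keep Hox genes on and Polycomb proteins keep them silent. Of 10 activators on the Trithorax side, Psip1 (-0.50 ± 0.17) and Wdr5 (-0.32 ± 0.09) fell in BMAd-Pnpla2+/+ mice with CR and Men1 (-0.56 ± 0.11) in BMAd-Pnpla2-/- mice, and none rose. Of 16 Polycomb genes, 3 rose and 3 fell in BMAd-Pnpla2+/+ mice, beside the same 15.1% and 10.9% of all genes. Among them Ezh2, the methyltransferase of dividing cells, fell (-1.03 ± 0.25), and Ezh1 (0.25 ± 0.07), Cbx7 (0.78 ± 0.20) and Bmi1 (0.44 ± 0.10) rose. In BMAd-Pnpla2-/- mice 1 rose, Bmi1 (0.58 ± 0.11), and 1 fell, beside 6.04% and 5.57% of all genes.

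The noncoding RNAs of the clusters were read at low levels. Summed, they stood at 3.14, 3.69, 2.27 and 3.32 CPM with AL and at 5.12, 6.15, 6.58 and 2.69 CPM with CR in BMAd-Pnpla2+/+ mice and, without Pnpla2 in BMAds, at 1.69, 4.37 and 2.49 CPM with AL and 3.95, 5.57 and 5.20 CPM with CR. The diets overlapped in both genotypes, in BMAd-Pnpla2+/+ mice through CR replicate 4. Of 20 noncoding transcripts of the clusters, 5 were tested, and Hoxd3os1 alone rose in BMAd-Pnpla2+/+ mice, on at most 27 counts (1.70 ± 0.57, adjusted p = 0.0423). Of 15 genes flanking the clusters, 11 were tested, with a median of 0.07. Skap1, beside Hoxb (0.80 ± 0.13), Smug1, beside Hoxc (0.52 ± 0.16), and Evx1, beside Hoxa13 (2.28 ± 0.77), rose, and Skap2, at the other end of Hoxa, fell (-0.51 ± 0.13). Of all tested genes, 15.1% rose and 10.9% fell with CR in BMAd-Pnpla2+/+ mice. None of the noncoding or flanking genes was called in BMAd-Pnpla2-/- mice with CR. No gene of the 7 lists was called by edgeR between the genotypes on either diet or in the difference of the responses.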

How the data were processed

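RNA from distal tibial marrow of 14 samples in 4 groups, as the labels give them, was sequenced by the study with paired reads on a DNBSEQ platform. Per the study's methods and processing notes, the authors checked reads with FastQC 0.11.9, aligned them to mm10 with STAR and used DESeq2. The values are read counts per gene that the authors deposited, not normalized, as 1 STAR table per sample with unstranded, first-strand and reverse-strand columns and as 1 matrix, whose values equal the reverse-strand column in 11 samples and the unstranded column in the 3 of BMAd-Pnpla2-/- CR. No column of the authors' own comparisons was used. The 4 summary rows that name no gene were left out. The analysis was made in R 4.3.3 and Python 3.11.15. Unstranded counts entered edgeR 4.0.16 (TMM, filterByExpr, robust quasi-likelihood fit of the 4 groups, Benjamini-Hochberg over 17671 genes), with the SE taken from the fold change and F. Alternatives were reverse-strand counts, the matrix, other size factors, no filter, DESeq2 1.42.0, a replicate block, only the 2 groups compared, a log2 threshold and each sample left out. The script was tested on simulated data. Values are given per sample for the 6 tested Hox genes with the highest level per length and for every Hox gene called in any of the 5 comparisons, and for at most 4 called genes, those with the most counts, of each other list. Members and lists were chosen with earlier results of these data known. Depth was 18898324 to 21665553 counts per sample. Exact binomial intervals (95%) and the limit of 3 counts for a count of 0 cover counting error only. Gene lengths and overlaps came from GENCODE M21, and promoter windows from RefSeq (GRCm38.p6), with a window for 16 of the 31 members. Some genes and sequences are not reported here.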

Additional observations from a re-analysis of the deposited data

Results flagged for a closer look

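Of 46 groups of 4 samples looked at, a sample stood apart from its group in 2, and chance would set apart about 1 in 20 groups. Hoxa13 in BMAd-Pnpla2+/+ AL replicate 1 stood at 7.0 CPM, where the other 3 AL samples lay between 3.64 and 4.08. Hoxb3 in BMAd-Pnpla2+/+ CR replicate 2 stood at 4.06 CPM, where the other 3 CR samples lay between 2.40 and 2.59. Outside the 31 members, Hoxc12 reached 4 counts, in replicate 2 of BMAd-Pnpla2-/- AL, with 0 in every BMAd-Pnpla2+/+ AL sample, which is 1 count above the limit that a count of 0 allows.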

How the results depend on the processing

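The 14 Hox genes called with CR in BMAd-Pnpla2+/+ mice became 8 with only the 2 groups, 7 with a log2 fold change over 1, and 7 to 20 with a sample left out. The 1 called in BMAd-Pnpla2-/- mice became 5 in the deposited matrix, 2 with DESeq2 and with only the 2 groups, 0 with a log2 fold change over 1, and 0 to 2 with a sample left out. The matrix holds reverse-strand counts for 11 samples and unstranded counts for the 3 of BMAd-Pnpla2-/- CR. With it, the median of paralogues 1 to 8 was -0.09 in BMAd-Pnpla2-/- mice and -0.82 in the difference of the responses. Under CR the genotype called 0 Hox genes, 6 with the matrix, 3 with DESeq2 and 0 to 3 with a sample left out, and the difference of the responses 0, or 2 with the matrix. The shift in the share of paralogues 9 to 13, tried in ways chosen after seeing the data, was 9.54 and 11.2 percentage points (BMAd-Pnpla2+/+ and -/-), and 13.1 and 14.9 over members free of exon overlap; without Hoxb4 it was 8.5 in BMAd-Pnpla2-/- mice. With a sample left out it was 8.8 to 10.9 and 10.2 to 12.6. Of the partner lists, 27 genes were called with CR in BMAd-Pnpla2+/+ mice, 15 with only the 2 groups and 10 to 33 with a sample left out. In BMAd-Pnpla2-/- mice 7 were called, 13 with the matrix and 0 to 10 with a sample left out. Between the genotypes under CR none was called, 16 with the matrix, 14 with DESeq2 and 0 to 18 with a sample left out, and in the difference of the responses 2 with the matrix. Beside the main fit, the share of all genes was counted in this section's fits only without BMAd-Pnpla2+/+ CR replicate 4. It covers rises with CR in BMAd-Pnpla2+/+ mice (18.4%). Counts of Hox and partner genes from the remaining fits thus have no background to be read against. Signs turned in BMAd-Pnpla2-/- mice, none of them called: with the matrix for Hoxa3 (-0.09), Hoxa7 (-0.18) and Hoxa11 (-0.41), with no filter for Hoxa3 (-0.01), and with a sample left out for Hoxa3 (-0.12 to 0.12), Hoxa5 (-0.09 to 0.26), Hoxa7 (-0.04 to 0.26) and Hoxb6 (-0.01 to 0.44). The causes were not tested. Deviations of same-numbered samples correlated at -0.38 to 0.33. Those of samples with unlike numbers were not looked at, so this range cannot decide whether replicate numbers pair the samples. With the replicate block, CR called 11 Hox genes with Pnpla2 kept and 1 with it deleted. Of the values for single genes, 575 kept their direction and their side of the threshold, 54 lost the call, 7 gained one and 10 turned in sign. The 575 include the comparison of the highest genes per length, which had no test. Few Hox genes exceeded 100 counts per library, which limits what these depths can show.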
